A study of Homo sapiens with 6 samples.

Results

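The SLC16 family of solute carriers, known as the monocarboxylate transporters (MCT), was examined in WM164, a human melanoma cell line of the BRAFV600E genotype. All rows of the deposited count table whose symbol was one of 9 names were taken: SLC16A1, SLC16A3, SLC16A4, SLC16A6, SLC16A7, SLC16A9, SLC16A10, SLC16A13 and SLC16A14. All 9 were found among 60504 genes, and 8 of them could be fitted. The genes were chosen by family name when the contrast of HDAC8 with empty vector in these libraries was already known, so their values in that contrast are given as a description and no p is printed for them. SLC16A5, SLC16A8, SLC16A11 and SLC16A12, 4 further members of the family, are given for comparison.

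RNA-seq was performed on 6 libraries. The EV group held 3 libraries of cells with an empty expression vector, and the HDAC8 group held 3 libraries of cells with a vector for HDAC8, a class I histone deacetylase. All cells had been transfected with a lipid reagent and kept under hygromycin, so both groups carry a vector and the selection. The libraries carry bioreplicate numbers, but nothing states that they came from separate cultures, so the p-values measure the spread between these libraries, which may be technical. The comparison asks how the presence of the HDAC8 vector relates to the transcript levels of these transporters in 1 cell line; SK-MEL-28 cells were not analysed here.

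Proteins of the SLC16 family are plasma membrane carriers with several membrane-spanning helices. The best known members, MCT1 (SLC16A1), MCT2 (SLC16A7), MCT3 (SLC16A8) and MCT4 (SLC16A3), move lactate, pyruvate and ketone bodies together with a proton, and reach the membrane with an immunoglobulin-like accessory glycoprotein such as basigin. Tumor cells that rely on glycolysis export lactate through MCT4, while MCT1 works in uptake or release depending on the gradient. Other members carry other substrates: SLC16A10 aromatic amino acids, SLC16A9 carnitine and creatine, and SLC16A6 ketone bodies and taurine. The substrates of SLC16A4, SLC16A13 and SLC16A14 are less well defined.

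Total counts per library ran from 34741083 to 42041462, and size factors from 0.918 to 1.17. The HDAC8 transcript itself stood at 384, 404 and 479 normalized counts in EV and at 485, 445.5 and 474 in HDAC8 (log2 fold change 0.15, SE 0.28, DESeq2 adjusted p = 0.856), so it does not check the labels; whether reads of the vector were counted under this gene is not stated. HDAC8 below therefore means the libraries labelled HDAC8. The library HDAC8 1 stood apart from HDAC8 2 on the second principal component (59.5 against -58.7, with 18.6% of the variance). Mitochondrially encoded transcripts took 9.66% to 12.8% of counts in EV and 4.46% to 7.94% in HDAC8. The melanocyte lineage markers were present in every library, except TYRP1, which was at 0 in HDAC8 1 and HDAC8 2. Their summed level was 244961 to 328760.5 normalized counts in EV and 137043.5 to 182218 in HDAC8, most of it PMEL. By the call rule given below, 5 of 8 were called lower, against 5.44% of all genes with an adjusted p. For 7 of 8, every HDAC8 library was below every EV library. Over all genes fitted, the groups did not overlap, in either direction, for 24.0%. Markers of epithelial, endothelial and fibroblast cells were low. The 4 epithelial markers summed to 77.5 to 132 in EV and 0 to 70.1 in HDAC8, the 3 endothelial markers to 97.5 to 203 and 114 to 218, and the 4 fibroblast markers to 142 to 207 and 12 to 95.8. From each of these lists 1 gene (EPCAM, CDH5 and DCN) was at 0 in all 6 libraries. Other genes of the lists had reads, such as VWF at 89.7 to 209 over the 6 libraries and COL1A1 at 95.3 to 105 in EV. The summed leukocyte markers ran from 2286 to 3302 in EV and from 4273 to 6165 in HDAC8. This was mostly CD68, while CD3E was at 0 in EV and at 50.1 to 91.1 in HDAC8, and PTPRC was at 0 in 5 libraries and at 2.6 in HDAC8 1. In bulk RNA, fewer cells of a type and less RNA per cell cannot be told apart.

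The 9 genes did not move in 1 direction. SLC16A9 rose from near 0 in EV to 102 to 206 normalized counts in HDAC8. SLC16A6 fell 3.25-fold, and SLC16A7, already low in EV, fell to 0 in every HDAC8 library. SLC16A3 was 2.00-fold higher on average in HDAC8, with a spread that kept it outside the call in the DESeq2 fit. SLC16A1, which had the highest level per length in EV, differed by less than the spread between libraries. Calls in the DESeq2 fit required an adjusted p (Benjamini-Hochberg) below 0.05 together with a log2 fold change of 0.58 or more in either direction. By this rule 1 of the 8 fitted members was called higher, against 5.57% of the 21021 genes with an adjusted p, and 2 were called lower, against 5.44%. The groups did not overlap for 4 of the 8 fitted members, against 24.0% of the 26162 genes fitted. The median log2 fold change of the 8 fitted members was 0.04. These shares stand beside the counts for scale only, since the members were selected on this contrast. Alternative fits named below reuse the same 6 libraries, so their calls of members only describe how a call depends on the fit.

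**Figure D1:**
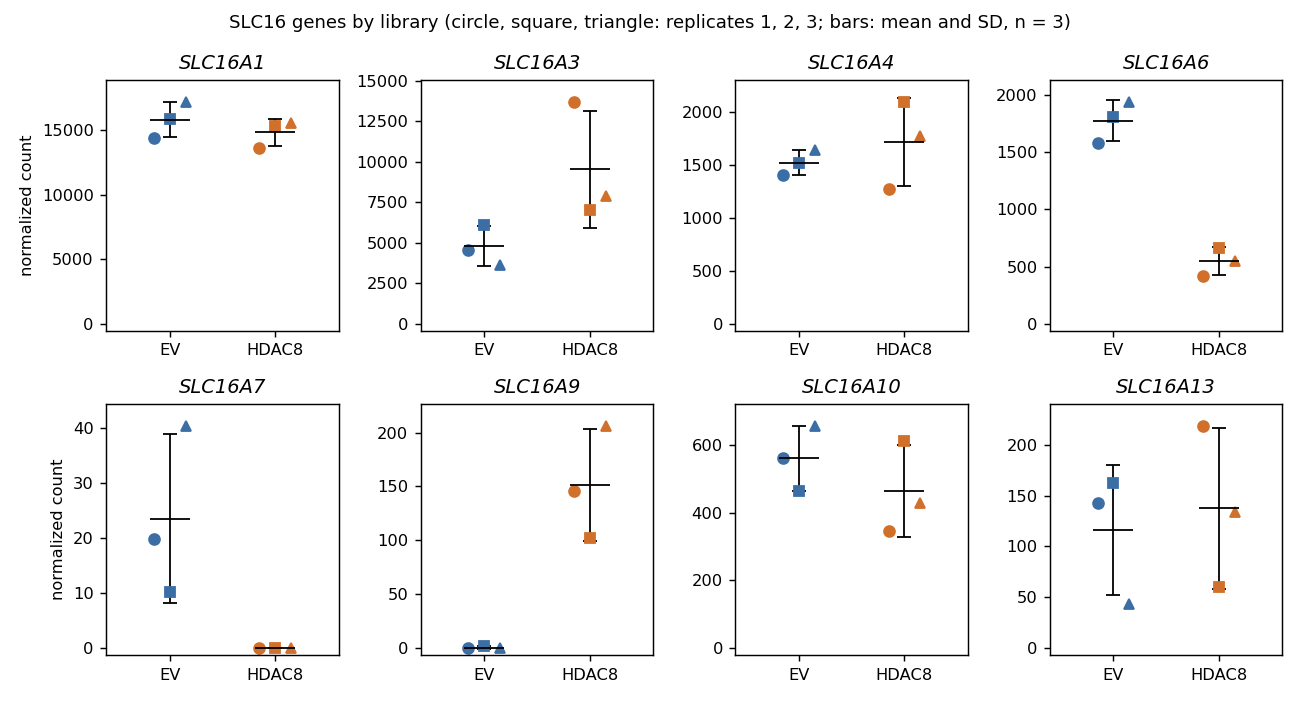
Normalized counts (vertical axes, linear) of the 8 SLC16 genes with reads in the 3 EV and 3 HDAC8 libraries; each point is 1 library, the wide dash is the group mean and the bar is the SD (n = 3). The groups are apart for SLC16A3, SLC16A6, SLC16A7 and SLC16A9 and overlap for the others.

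The promoters of SLC16A9, which rose, and of SLC16A3, whose HDAC8 libraries all lay above EV, are shown here, since these are the members with more transcript in every HDAC8 library. Sequences are from RefSeq (GRCh38.p14) and run from 250 bases before to 50 bases after an annotated start, in the direction of transcription. Entries were found for 6 of the 9 members, with 12 starts in all; SLC16A1, SLC16A6 and SLC16A13 had no entry. Capitals mark ACGTG, the core of the hypoxia response element, and CACGTG, the E-box read by MYC and by MITF and its relatives. SLC16A9 has 2 annotated starts on the minus strand, at chr10:59710030-59710329 and chr10:59709801-59710100, which overlap. The second is the start of its canonical GENCODE transcript. SLC16A3 has 5 annotated starts on the plus strand and is shown only at that of its canonical GENCODE transcript, at chr17:82228792-82229091.
SLC16A9 first start: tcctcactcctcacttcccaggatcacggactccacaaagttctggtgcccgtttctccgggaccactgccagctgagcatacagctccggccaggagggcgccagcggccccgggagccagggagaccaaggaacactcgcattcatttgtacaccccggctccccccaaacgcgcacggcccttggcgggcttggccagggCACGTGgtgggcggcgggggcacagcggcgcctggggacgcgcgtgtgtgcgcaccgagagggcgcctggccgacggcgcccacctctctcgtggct
SLC16A9 second start: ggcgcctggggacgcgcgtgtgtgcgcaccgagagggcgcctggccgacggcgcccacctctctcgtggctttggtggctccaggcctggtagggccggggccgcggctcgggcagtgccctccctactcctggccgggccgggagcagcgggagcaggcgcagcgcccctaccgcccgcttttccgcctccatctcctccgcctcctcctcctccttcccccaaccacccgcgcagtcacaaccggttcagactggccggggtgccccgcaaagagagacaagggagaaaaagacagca
SLC16A3 canonical start: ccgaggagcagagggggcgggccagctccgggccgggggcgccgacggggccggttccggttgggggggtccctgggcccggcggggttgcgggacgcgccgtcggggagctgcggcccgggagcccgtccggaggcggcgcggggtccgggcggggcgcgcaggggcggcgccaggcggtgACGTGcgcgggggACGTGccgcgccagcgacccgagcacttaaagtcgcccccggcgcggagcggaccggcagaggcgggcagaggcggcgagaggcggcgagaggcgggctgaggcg

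Motifs were searched on both strands. ACGTG was found at 3 of the 12 starts, against 21.4% of 35116 promoters of the same length. These were the starts shown of SLC16A9 (first) and SLC16A3, the latter with 2 copies, and that of SLC16A10. No motif searched was found at the other starts of SLC16A3. ACGTG lies within CACGTG, so the SLC16A9 match counts for both. CACGTG was found at 1 start, the first of SLC16A9, with its first base 47 bases before the start, against 7.26% of promoters. CATGTG, the other E-box tied to MITF, was found at 1 start, that of SLC16A14, against 11.1%. TGANTCA, the AP-1 site read by JUN and FOS, was found at 0 of the 12 starts, against 7.71%. These are matches of letters in 1 window and not binding sites.

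Among the proton-coupled lactate carriers, SLC16A1 (chromosome 1, 112911847 to 112957593, minus strand, GENCODE 44) encodes MCT1. It stood at 14406, 15822 and 17159 normalized counts in EV and at 13577, 15322 and 15501 in HDAC8. The ranges overlapped, and the means were 15795.5 ± 1377 and 14800.2 ± 1063 (SD, n = 3). On the log2 scale the difference, HDAC8 over EV, was -0.09 (SE 0.13), with a 95% interval of -0.35 to 0.16. SLC16A1-AS1, on the other strand, shares 231 bases of exon with it, or 3.64% of the exons of SLC16A1, and had a log2 fold change of -0.43 (DESeq2 adjusted p = 0.254).

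SLC16A3 (chromosome 17, 82217934 to 82261129, plus strand) encodes MCT4, the lactate exporter of glycolytic cells. It stood at 4572, 6107 and 3656 normalized counts in EV and at 13684, 7045 and 7881 in HDAC8. Every HDAC8 library was above every EV library, and HDAC8 1 was well above the other HDAC8 libraries. The means were 4778 ± 1239 and 9537 ± 3616 (SD, n = 3), which is 1.00 on the log2 scale (SE 0.38, 95% interval 0.25 to 1.75). SLC16A3 was not called in the DESeq2 fit with a total count of at least 10. Its own dispersion, 0.105, lay so far above the 0.0179 of the trend that DESeq2 left it unshrunk. Without the filter on low counts the dispersion used was 0.0392 and the SE was 0.23, with the fold change still at 1.00, and the gene was called. Of 15 alternative fits, all of them refits of the same libraries, 11 called it, among them edgeR (0.99), limma-voom (0.97) and all 6 fits with 1 library left out. The fold change was smallest without HDAC8 1, at 0.64. CSNK1D, a casein kinase gene on the opposite strand, shares 482 bases of exon with SLC16A3 (5.22% of its exons) and had a log2 fold change of 0.40 (DESeq2 adjusted p = 0.0849); whether counting used strand is not stated, so reads of the shared stretch cannot be told apart.

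**Figure D2:**
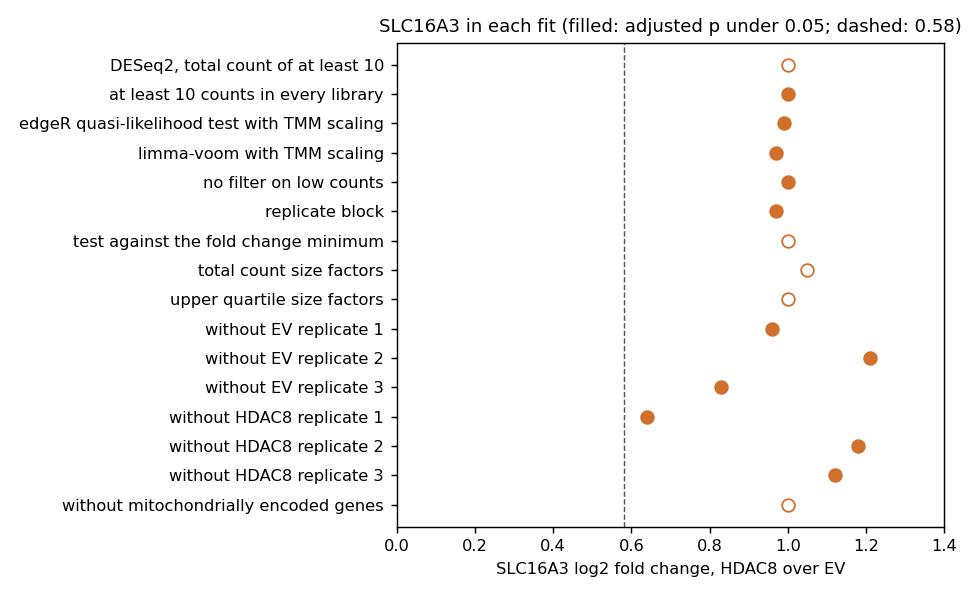
Log2 fold change of SLC16A3 (horizontal axis, HDAC8 over EV) in the DESeq2 fit and its 15 alternatives (vertical axis); filled points have an adjusted p under 0.05 and the dashed line marks the minimum of 0.58. The values run from 0.64 without HDAC8 1 to 1.21 without EV 2, and 11 of the 15 alternatives are filled.

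SLC16A7 (chromosome 12, 59596029 to 59789855, plus strand) encodes MCT2, a carrier with high affinity for lactate and pyruvate. It had 19, 11 and 41 counts in the EV libraries and 0 in each HDAC8 library. The groups did not overlap, and the whole signal rested on 71 counts. With the EV mean set against a floor of 3 counts in each HDAC8 library, SLC16A7 was at least 7.93-fold lower in HDAC8. This bound covers the counting error of the HDAC8 libraries only, since the EV mean is taken as fixed. It was called lower in the DESeq2 fit, but not by edgeR, by limma-voom, when the fold change minimum itself was tested or without EV 1, and it had no adjusted p without EV 3. SLC16A8, which encodes MCT3 of the retinal pigment epithelium, was at 12.6, 24.3 and 23.6 in EV and at 98.3, 3.1 and 7.6 in HDAC8. HDAC8 1 was thus the highest library and the other HDAC8 libraries were the lowest (DESeq2 adjusted p = 0.804).

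SLC16A6 (chromosome 17, 68267026 to 68291267, minus strand) encodes MCT7, known for the export of ketone bodies from the liver. It stood at 1577, 1805 and 1936 normalized counts in EV and at 422, 665 and 551 in HDAC8. The groups were far apart. The means were 1773 ± 181.5 and 546 ± 122 (SD, n = 3). SLC16A6 fell by 1.70 on the log2 scale (SE 0.23, 95% interval -2.15 to -1.25), and the 15 alternatives, which all called it, ranged from -1.86 to -1.55. Reads of SLC16A6 are partly shared with a pseudogene on the same chromosome, SLC16A6P1. The expected counts of the pair summed to whole numbers in all 6 libraries (1554, 1973 and 2040 in EV, 582, 649 and 537 in HDAC8), as they do when reads are divided between both genes. The pseudogene held 2.02% to 3.69% of the sum in EV and 15.3%, 0% and 5.71% in HDAC8. The log2 ratio of the summed counts was -1.65, close to that of SLC16A6 alone.

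The genes around SLC16A6 were also examined, by a window chosen after the data were seen. Of 24 fitted genes that start within 500 kb, 18 had an adjusted p, 0 were called higher and 2 were called lower. Over all genes with an adjusted p, 5.57% were called higher and 5.44% lower. WIPI1, an autophagy gene whose start lies 166 kb away, fell by 1.32 on the log2 scale (SE 0.18, DESeq2 adjusted p = 7.11e-12). ARSG, a lysosomal sulfatase gene whose body spans SLC16A6 on the opposite strand and shares 144 bases of exon with it (3.55% of the SLC16A6 exons), fell by 0.87 (SE 0.27, DESeq2 adjusted p = 0.0137), and this call was lost in 4 of 15 alternatives. PRKAR1A, a regulatory subunit of protein kinase A (-0.55, DESeq2 adjusted p = 0.0106), and KPNA2, an importin (-0.48, DESeq2 adjusted p = 0.00169), lay under the fold change minimum. Around SLC16A3 53 genes had an adjusted p. Of them 0 were called lower, and 2 were called higher against 5.57% over all genes. These were NOTUM, a WNT-inactivating esterase gene (log2 fold change 2.46, DESeq2 adjusted p = 0.00217), and AC132872.1 (1.69, DESeq2 adjusted p = 0.0126). Around SLC16A9 the single gene with an adjusted p, CCDC6, was not called (-0.32, DESeq2 adjusted p = 0.442), and around SLC16A7 no gene could be fitted.

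**Figure D3:**
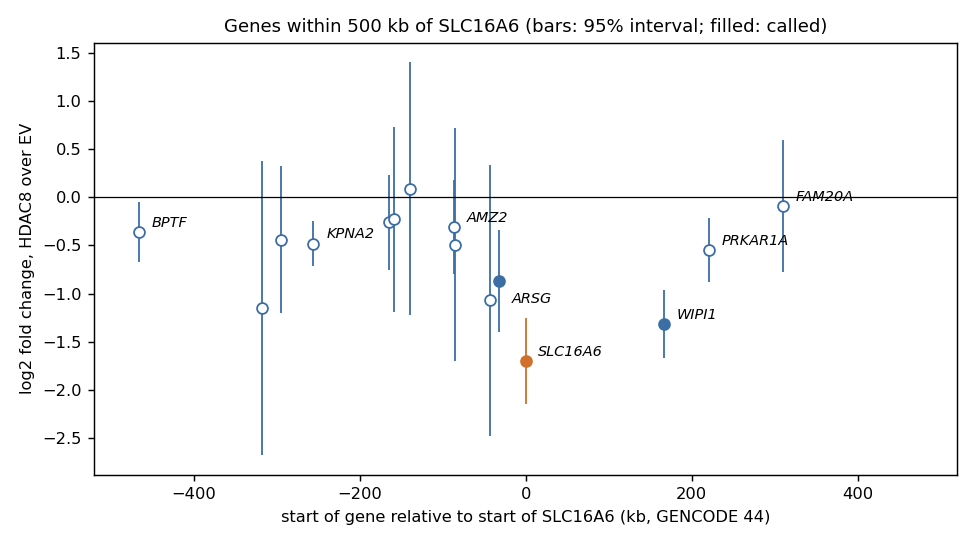
Log2 fold change (vertical axis, HDAC8 over EV) of SLC16A6 and of 14 genes that start within 500 kb of it and whose group means sum to at least 100 normalized counts, against the distance between starts in kb (horizontal axis); bars are 95% intervals and filled points are called. SLC16A6 at 0, ARSG and WIPI1 are the filled points, all lower in HDAC8.

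The genes whose profile over the 6 libraries lay nearest to that of SLC16A6, by root mean square distance of the centered log2 values among 12762 genes with a mean of at least 100, were SLC24A5, ADCY2 and DIRAS2. SLC24A5, a cation exchanger of the melanosome, was at a distance of 0.083 and had a log2 fold change of -1.62 (SE 0.19). ADCY2, an adenylyl cyclase, was at 0.100 with a fold change of -1.74 (SE 0.20), and DIRAS2, a small GTPase, at 0.127 with -1.56 (SE 0.55). For SLC16A9 the nearest were KIF1A, a kinesin of neurons, PTCHD1, and DSP, a desmosome protein, at distances of 0.618, 0.733 and 0.859. These are similarities over 6 libraries of 2 groups, and the group difference makes up most of each profile.

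SLC16A9 (chromosome 10, 59650764 to 59736002, minus strand) encodes MCT9, and its level in EV was at or near 0. It stood at 0, 1.9 and 0 normalized counts in EV and at 145, 102 and 206 in HDAC8. The EV libraries together held 2 counts of SLC16A9 and the HDAC8 libraries 459. Scaled by the size factors, the ratio was 228, with an exact 95% interval of 62.7 to 1886 that covers counting error only. It was called higher in all 14 alternatives that gave a value for it. Even so it stayed a minor transcript in HDAC8, far below SLC16A1.

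The remaining members overlapped between the groups. SLC16A4 (chromosome 1, 110362851 to 110391082, minus strand) encodes MCT5 and stood at 1407, 1519.5 and 1646 in EV and at 1272, 2098.5 and 1777 in HDAC8. SLC16A4 had its lowest and its highest value in HDAC8 (log2 fold change 0.17, SE 0.22, 95% interval -0.25 to 0.60). LAMTOR5-AS1, on the other strand, shares 133 bases of exon with it (4.2% of its exons) and had a log2 fold change of 0.18. SLC16A10 (chromosome 6, 111087503 to 111231194, plus strand) encodes TAT1, a carrier of aromatic amino acids, and stood at 562, 464 and 655 in EV and at 346, 612 and 430.1 in HDAC8. Its log2 fold change was -0.28 (SE 0.31, 95% interval -0.89 to 0.34). SLC16A13 (chromosome 17, 7036015 to 7040117, plus strand) stood at 143, 162.5 and 43.3 in EV and at 218, 60.4 and 134 in HDAC8. SLC16A13 had a log2 fold change of 0.24 (SE 0.65), which turned to -0.16 without EV 3 and to -0.26 without HDAC8 1. SLC16A14 (chromosome 2, 230034982 to 230068993, minus strand) was at 0 in all 6 libraries, where 3 counts would be 2.57 to 3.27 normalized counts.

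Among these 4 further SLC16 genes, SLC16A8 and SLC16A11 had an adjusted p and 0 were called, against 5.57% higher and 5.44% lower over all genes. SLC16A11, a neighbor of SLC16A13, had a log2 fold change of -0.06 (DESeq2 adjusted p = 0.986). SLC16A5 had reads in HDAC8 1 (1.7 normalized counts) and HDAC8 2 (8.2), and SLC16A12 in EV 1 (22), and both were too low for an adjusted p.

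Levels of different SLC16 genes were compared only per length, as CPM per kb of exon, where CPM is the count scaled to the library total. In EV the order ran from SLC16A1 (64.6 ± 3.38, SD, n = 3) through SLC16A3 (13.5 ± 3.41), SLC16A4 (12.5 ± 0.568) and SLC16A6 (11.3 ± 0.731) to SLC16A13 (1.42 ± 0.788) and SLC16A10 (1.30 ± 0.219). SLC16A7 (0.0444 ± 0.0280), SLC16A9 (0.00378 ± 0.00654) and SLC16A14 (0) came last. SLC16A3 and SLC16A4 did not differ beyond their spread, SLC16A4 and SLC16A6 met at 12.1, and SLC16A13 and SLC16A10 overlapped. In HDAC8 the order was SLC16A1 (62.4 ± 2.42), SLC16A3 (27.9 ± 11.7), SLC16A4 (14.4 ± 3.02) and SLC16A6 (3.59 ± 0.677), followed by SLC16A13 (1.74 ± 1.06), SLC16A10 (1.10 ± 0.287) and SLC16A9 (0.966 ± 0.331), and the last 3 did not differ beyond their spread. The order depends on the length used. With the median length of annotated transcripts, SLC16A6 lay above SLC16A4 in each EV library (ratio 1.06 to 1.12) and SLC16A10 rose to 16.0 ± 2.7 in EV.

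With the exons as length, the summed levels of the groups met at 107, while the shares of SLC16A1, SLC16A3 and SLC16A6 in them did not overlap. The share of SLC16A1 was 59.4% to 64.7% in EV and 49.8% to 58.9% in HDAC8. The sum over the 9 members was 101, 107 and 106 in EV and 120, 107 and 110 in HDAC8. With the median transcript length it was 212, 224 and 215 in EV and 287, 231 and 236 in HDAC8, so the groups no longer met. With the exons as length, SLC16A1 and SLC16A3 together made up 74.2% to 75.1% of the sum in EV and 77.3% to 84.3% in HDAC8. With the median transcript length they made up 70.3% to 74.6% in EV and 76.5% to 86.4% in HDAC8. By exons again, the ratio of the 2 genes was as follows. The level of SLC16A3 over that of SLC16A1 was 0.218, 0.265 and 0.146 in EV and 0.693, 0.316 and 0.349 in HDAC8, so HDAC8 1 again stood highest and the groups did not overlap. The median transcript length gave 0.458, 0.557 and 0.308 in EV and 1.46, 0.664 and 0.734 in HDAC8, again without overlap, and put SLC16A3 above SLC16A1 in HDAC8 1. With the exons as length, the level of SLC16A6 over that of SLC16A4 was 0.874 to 0.927 in EV and 0.242 to 0.259 in HDAC8. With the median transcript length it was 1.06 to 1.12 in EV and 0.293 to 0.314 in HDAC8.

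**Figure D4:**
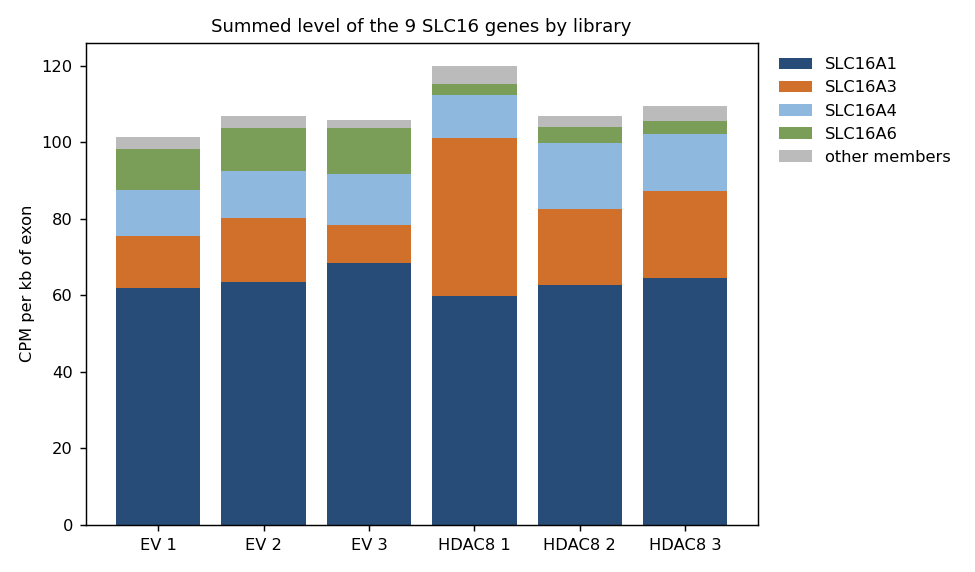
Level per length (vertical axis, CPM per kb of exon) of the 9 SLC16 genes, stacked, in each of the 6 libraries. SLC16A1 fills about the same height in every bar, the SLC16A3 segment is largest in HDAC8 1, and the SLC16A6 segment is smaller in the 3 HDAC8 libraries.

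The accessory glycoproteins that bring these carriers to the membrane were measured in the same fit. Of these 3, 0 were called, against 5.57% higher and 5.44% lower over all genes. BSG, basigin, the partner of MCT1 and MCT4, had means of 27013 ± 6215 in EV and 31000.0 ± 1507 in HDAC8 (SD, n = 3), with a log2 fold change of 0.20 (DESeq2 adjusted p = 0.518). EMB, embigin, had a log2 fold change of -0.81 (DESeq2 adjusted p = 0.173) and NPTN, neuroplastin, one of -0.21 (DESeq2 adjusted p = 0.542). The sodium-coupled lactate carriers SLC5A8 and SLC5A12 were at 0 in every library.

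Of 44 partner and pathway genes in all, listed by function, 38 had an adjusted p. Of these, 2 were called higher, against 5.57% over all genes, and 4 lower, against 5.44%. The median log2 fold change of the fitted partner and pathway genes was -0.11, against 0.00 over all genes fitted. In the list of 18 lactate and pyruvate genes PDP1, a phosphatase that activates pyruvate dehydrogenase, rose from 2422 ± 264 to 7647 ± 1157 normalized counts (SD, n = 3; log2 fold change 1.66, SE 0.16, DESeq2 adjusted p = 1.14e-21). PC, pyruvate carboxylase, rose by 0.64 (DESeq2 adjusted p = 0.0194), a call lost in 6 of 15 alternatives, with values of 0.44 without HDAC8 1, 0.52 without EV 1 and 0.57 without EV 3. LDHD, the mitochondrial dehydrogenase of D-lactate, fell from 31.5, 78.5 and 71.9 in EV to 0, 6.1 and 0 in HDAC8 (DESeq2 adjusted p = 0.00434), a call lost in 5 of 14 alternatives, without EV 2 and without EV 3 among them. The subunits of the main lactate dehydrogenase were not called. LDHB, which favors lactate oxidation, had a log2 fold change of -0.50 (DESeq2 adjusted p = 0.0241), under the fold change minimum, and reached -0.72 and a call without HDAC8 1. LDHA, which favors lactate formation and was named after its values were seen, had one of 0.35 (DESeq2 adjusted p = 0.0564). Every HDAC8 library was above every EV library for LDHA, and below for LDHB. The groups did not overlap, in either direction, for 9 of the 16 fitted genes of this list, against 24.0% of all genes fitted.

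Over all genes 5.57% were called higher and 5.44% lower. In the ketone body list 0 of 5 genes with an adjusted p were called. OXCT1, the gene of this list with the highest mean count, which starts the use of ketone bodies, had a log2 fold change of 0.34 and ACAT1 one of -0.55 (DESeq2 adjusted p = 0.0456), under the minimum. Among 8 carriers of the same substrates as SLC16A9, SLC16A10 and SLC16A6, 1 was called: SLC7A5, the large neutral amino acid transporter, fell by 0.74 (DESeq2 adjusted p = 2.66e-05), or by 0.56 without EV 2, where it lay under the minimum. Among 7 regulators 2 were called lower. EPAS1, which encodes the hypoxia factor HIF-2α, fell by 1.06 (DESeq2 adjusted p = 5.29e-08), and PPARGC1A, a coactivator of mitochondrial biogenesis, fell by 0.71 (DESeq2 adjusted p = 7.18e-05). MITF, the regulator with the highest mean count, which was not scaled to length, had a log2 fold change of -0.20 (DESeq2 adjusted p = 0.544). HIF1A, the hypoxia factor known for inducing SLC16A3, was named after its values were seen and had one of -0.14 (DESeq2 adjusted p = 0.787).

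**Figure D5:**
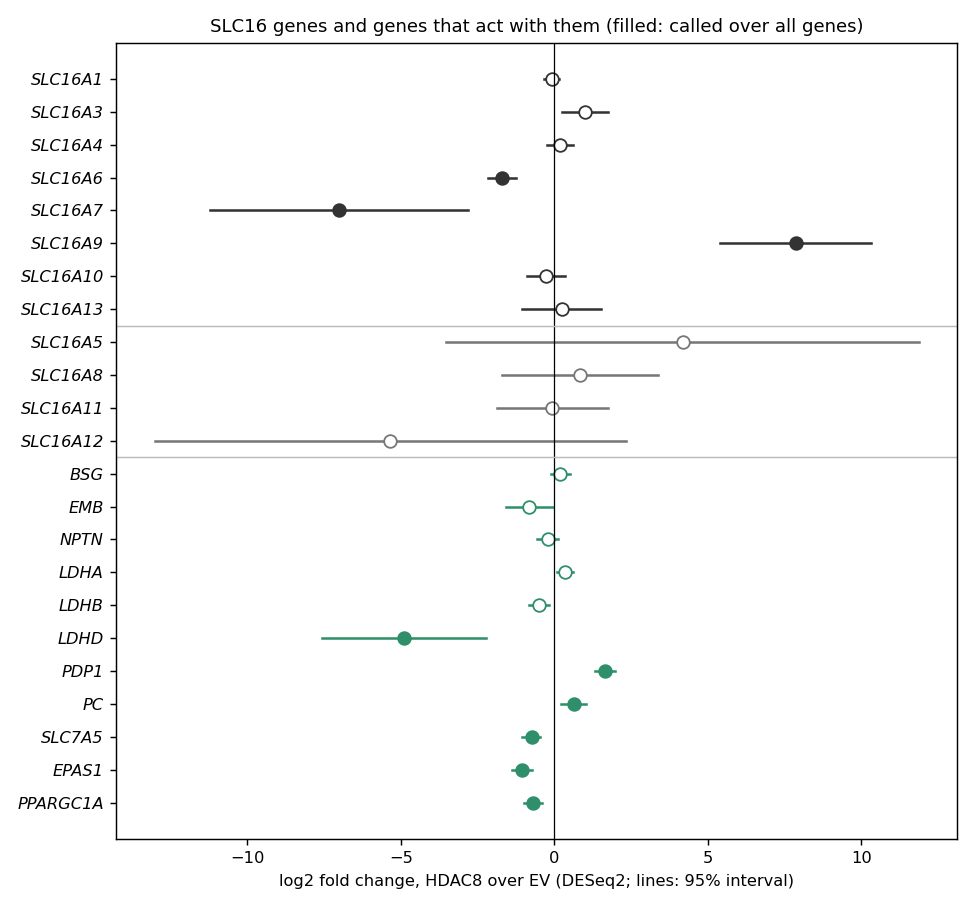
Log2 fold change, HDAC8 over EV (horizontal axis), of the 8 fitted SLC16 members (top), 4 other SLC16 genes (middle) and accessory or pathway genes (bottom); lines are 95% intervals from the DESeq2 standard error and filled points are called. Among the SLC16 genes plotted only SLC16A6, SLC16A7 and SLC16A9 are filled, and the intervals of SLC16A7 and of SLC16A9 are wide because 1 group is at or near 0.

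Mitochondrial share and melanocyte markers were lower and CD68 and CD3E higher in HDAC8, beside each of these results, and their part in them was not tested. A fit without mitochondrially encoded genes gave the same counts of members called, 1 higher and 2 lower. That fit only drops these genes from the table, so it does not test the part of the mitochondrial share.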

How the data were processed

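RNA was sequenced from 3 EV and 3 HDAC8 libraries of WM164. The authors trimmed reads with Trimmomatic, aligned them with STAR and deposited RSEM expected counts per gene, unscaled between libraries. An expected count divides a read among the genes it may come from. Build, annotation and strand use are not given in the sources used here. The labels and the methods of the study name different RNA kits. Coordinates and exon lengths are from GENCODE 44 (GRCh38), joined by Ensembl identifier.

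Counts were rounded and genes with a total of at least 10 were fitted with DESeq2 1.42.0 (R 4.3.3; two-sided Wald test, no covariates). Calls needed a Benjamini-Hochberg adjusted p under 0.05 and an absolute log2 fold change of 0.58 or more, applied over all genes. The paper describes its DESeq2 step with the same cutoffs. The legend of its figure on changed genes instead names a p under 0.05 with no correction for multiple testing. That looser rule was not applied here. Genes without an adjusted p were left out of counts of calls. Alternatives were edgeR 4.0.16, limma-voom (limma 3.58.1), total count and upper quartile size factors, no filter, a minimum of 10 counts per library, a replicate block, a fit without mitochondrial genes, a test against the fold change minimum and each library left out. The fits were tested on simulated data. Libraries of 1 group differed beyond sampling noise (chi-square per degree of freedom 26 to 153), so none was counted as a duplicate. Floors and count intervals (95%) cover counting error only, since reads carry no molecular identifiers.

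The 9 members and all gene lists were chosen with earlier results of these data known. The text names the members, the other SLC16 genes, antisense, pseudogene and overlapping genes, accessory proteins, and from each pathway list the called genes and the one with the highest mean normalized count (not scaled to length), plus, for the called member with the highest mean in each direction, the 3 nearest profiles. Of the other SLC16 genes, 1 is not reported here. Other genes are marked where they are named. The sum with SLC16A6P1 and the windows of 500 kb were added after the data were seen.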

Additional observations from a re-analysis of the deposited data

How the results depend on the processing

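With 3 libraries a group, each low gene rests on few reads. Over the alternatives, members stayed in direction and on their side of the threshold in 100 values, crossed into a call in 11 (all SLC16A3), lost a call in 4 (all SLC16A7) and changed direction in 2 (both SLC16A13). The number of members called higher was 1, and 2 under edgeR, limma-voom, no filter, the replicate block and each library left out (2 to 2). Under the minimum of 10 counts per library it was also 1, but that gene was SLC16A3, since SLC16A9 was not fitted. The number called lower was 2, and 1 with at least 10 counts in every library, where SLC16A7 was not fitted, and under edgeR, limma-voom and the test against the fold change minimum; with 1 library left out it was 1 to 2, being 1 without EV 1 or EV 3. Partner and pathway genes called higher numbered 2, and 1 under edgeR, the replicate block and the fold change minimum, and 1 to 2 with 1 library left out (1 without EV 1, EV 3 or HDAC8 1). Those called lower numbered 4, and 0 under the fold change minimum, and 2 to 7 with 1 library left out (2 without EV 2, 7 without HDAC8 2). The 2313 genes called in all became 583 when the minimum itself was tested, which asks for more than the fold change filter does. The cause of the other changes was not tested.

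Direction changed only in genes that were not called. SLC16A8 became -0.34 under limma-voom, -0.80 with the replicate block and -1.92 to 1.4 with 1 library left out. SLC16A11 became 0.01 with total count size factors and -0.36 to 0.18 with 1 left out. With 1 library left out SLC16A13 ran from -0.26 to 0.60, SLC16A6P1 from -1.70 to 0.02 and HIF1A from -0.26 to 0.08. The fall of DIRAS2 lost its call in 9 of 15 alternatives.

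The libraries share replicate numbers, but deviations from the group means correlated at -0.027, -0.066 and 0.04 between same-numbered libraries (14451 genes), so the numbers were not taken to pair them. Beyond SLC16A3, which the replicate block called, no member changed its call in that fit. The alternative for a table of normalized values did not apply, since the table holds counts.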
